A study of Rattus norvegicus with 18 samples.

Results

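The subunits of the NMDA receptor were followed by RNA sequencing through a culture model of glutamate excitotoxicity, the injury of neurons by excess glutamate. Members were the rows named Grin1, Grin2a, Grin2b, Grin2c, Grin2d and Grin3a. Grin3b, the gene of the remaining subunit GluN3B, was not among the listed names and is given with the partner genes. This gave 6 genes of 31463 rows, and all 6 were among the 14398 genes that passed the filter on low counts. Libraries came from cortical neuroglial cultures of newborn Wistar rats, in which neurons grew with astrocytes and other glia and cytosine arabinoside had been used to limit the dividing glia. There were 6 groups of 3 libraries, taken on day 10 in vitro, with RNA collected 4 h after the glutamate model had been carried out. Control cultures received no glutamate, and the Glutamate group received 100 µM glutamate. The Memantine group received 100 µM memantine, a blocker of the receptor channel. Its label does not name glutamate, while the design of the study places it within the glutamate model. Cultures of Glutamate_vesicles, Glutamate_secret and Glutamate_BPC received glutamate after a preparation from glial progenitor cells on the day before. The first of these preparations was extracellular vesicles. The labels do not settle which of the other two names was the total secretome and which was the protein fraction, so both are used as given. The study describes its cultures as unrelated and removed a covariate named day before clustering its libraries, while the labels tie no library to a day or litter. The p-values measure the spread between these libraries.

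The NMDA receptor is a channel that opens when glutamate and a co-agonist, glycine or D-serine, are bound while the membrane is depolarised, and it admits calcium. Every receptor holds GluN1, the product of Grin1, together with GluN2 or GluN3 subunits. In the rodent cortex GluN2B, from Grin2b, is the main GluN2 subunit early in life, and GluN2A, from Grin2a, joins it as synapses mature. GluN2C (Grin2c) is best known from cerebellar granule cells and is also found in astrocytes, GluN2D (Grin2d) is prominent in early development and in interneurons, and GluN3A (Grin3a) forms receptors that pass little calcium.

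Total counts ranged from 8409565 to 17206342 per library. Between 3.043% and 43.01% of the counts were ribosomal RNA, with the highest share in Control 1, whose scaling factor of 0.4166 was the lowest of all. Libraries that carry number 2 in their labels held between 3.043% and 8.149% ribosomal RNA, those with number 1 between 13.43% and 43.01%, and those with number 3 between 6.585% and 26.62%. Memantine 3 stood apart from the other 2 Memantine libraries in its neuronal RNA. The summed level of 12 neuron markers in CPM, the counts scaled to a common library size, ran from 2598 to 4930 in Control, from 846.3 to 1978 in Glutamate, and was 1034, 2570 and 5072 in the 3 Memantine libraries, with the lowest value in Memantine 3. All 12 neuron markers and all 8 astrocyte markers had counts in every library. Endothelial markers summed to at most 4.208 CPM.

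Promoters are printed for the obligatory subunit Grin1 and for Grin2c, whose log2 CPM had the most negative correlation with that of Grin1 among the subunits (r = -0.608 over 18 libraries). The windows are the 250 bases before the annotated start in the RefSeq assembly GRCr8, and capitals mark TGACG, the core of the cyclic AMP response element, on either strand.

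Grin1, chr3:28528755-28529004, minus strand: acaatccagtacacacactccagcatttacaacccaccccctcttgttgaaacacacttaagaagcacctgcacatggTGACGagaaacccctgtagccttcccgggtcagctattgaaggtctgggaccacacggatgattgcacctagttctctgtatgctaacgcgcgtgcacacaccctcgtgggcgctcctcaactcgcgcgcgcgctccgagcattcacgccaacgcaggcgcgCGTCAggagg

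Grin2c, chr10:101005139-101005388, minus strand: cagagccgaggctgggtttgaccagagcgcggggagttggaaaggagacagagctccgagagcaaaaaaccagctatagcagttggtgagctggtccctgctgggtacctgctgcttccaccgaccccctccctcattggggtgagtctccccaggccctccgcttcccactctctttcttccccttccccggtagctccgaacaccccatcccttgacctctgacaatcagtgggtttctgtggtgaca

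The Grin1 window held TGACG at positions -172 and -10 from the start, once on each strand, and the Grin2c window held none. Of 33469 annotated promoters, 18.2% held these letters. A window was found for 4 of the 6 subunits, also for Grin2d and Grin3a. Those of Grin2d and Grin3a had no match to TGACG. None of the 4 windows matched the GC box GGGCGG, which 30.5% of promoters held, the full cyclic AMP response element TGACGTCA (1.59%), the AP-1 element TGANTCA (6.34%), the NRF1 element (3.75%) or TTCAGCACC, the left part of the RE1 element (0.305%), on either strand. The motifs were chosen after the values of the genes had been seen, and a match is a description of the letters only.

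Grin1 had the highest counts of the subunits and gave the clearest pattern. In the Control libraries 1, 2 and 3 it stood at 43.97, 98.11 and 94.08 CPM. After glutamate the 3 values were 41.59, 18.67 and 15.95 CPM. All Glutamate libraries lay below all Control libraries, as for 7.76% of all tested genes, although Glutamate 1 came close to Control 1. The Memantine libraries held 197.3, 108.6 and 22.64 CPM, so that 2 of the 3 lay above the range of Control and Memantine 3 lay within the range of Glutamate. Glutamate_vesicles gave 30.41, 25.36 and 17.59 CPM. Glutamate_secret gave 33.24, 18.49 and 19.55 CPM, and Glutamate_BPC gave 32.42, 17.35 and 24.73 CPM. The 3 groups with a preparation overlapped the Glutamate group throughout and lay below every Control library. In the same order of groups, 9.83%, 9.07% and 12.7% of all tested genes lay below every Control library.

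Grin2b followed the order of Grin1 at lower counts. Control held 12.28, 53.15 and 25.15 CPM, and Glutamate held 8.783, 13.02 and 8.269 CPM, with Glutamate 2 above Control 1. Memantine held 38.77, 62.34 and 3.377 CPM, the last being the lowest value of all 18 libraries. With the preparations the values were 9.67, 7.142 and 4.52 CPM in Glutamate_vesicles, 8.979, 4.424 and 4.706 CPM in Glutamate_secret, and 10.78, 6.744 and 7.159 CPM in Glutamate_BPC. Each of these 9 libraries lay below every Control library, as for 9.83%, 9.07% and 12.7% of all tested genes in the same order of groups.

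Grin2a, the subunit of mature synapses, was sparse. It had 0, 18 and 26 counts in Control, 0, 7 and 4 in Glutamate, and 12, 101 and 0 in Memantine. In Glutamate_vesicles it had 4, 16 and 2 counts, in Glutamate_secret 0, 3 and 0, and in Glutamate_BPC 4, 4 and 2. It passed the filter through few libraries. The 5 libraries at 0 belonged to 4 groups, and most of the counts in Memantine came from Memantine 2.

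Grin2d and Grin3a varied with the number of the library. Grin2d held 0.571, 7.166 and 5.978 CPM in Control, 0.2583, 1.333 and 0.5837 CPM in Glutamate, and 1.074, 6.501 and 0.3593 CPM in Memantine. Its values were 0.2991, 1.725 and 0.729 CPM in Glutamate_vesicles, 0, 1.239 and 0 CPM in Glutamate_secret, and 0.3622, 0.6917 and 0.1085 CPM in Glutamate_BPC. Grin3a held 0.2855, 2.454 and 2.423 CPM in Control, 1.162, 6.285 and 0.9729 CPM in Glutamate, and 0.2148, 7.112 and 0.4312 CPM in Memantine. With vesicles it ranged from 1.458 to 5.858 CPM, in Glutamate_secret from 0.5431 to 4.468 CPM and in Glutamate_BPC from 0.5424 to 1.614 CPM. For both genes, library 2 was the highest of its group in 6 of 6 groups. How many of all genes had this pattern was not counted. Libraries numbered 2 held between 3.043% and 8.149% ribosomal RNA, but Control 3 (6.585%) held less than Control 2 (6.801%). Over the 18 libraries, which differ in depth and treatment, the log2 CPM of Grin3a had a correlation of r = -0.782 with the log2 share of ribosomal RNA, Grin2d had r = -0.665, Grin1 had r = -0.077 and Grin2b had r = -0.156. The part of RNA composition in the Grin2d and Grin3a values was not tested beyond a fit with this share as a covariate.

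Grin2c was low throughout and had its lowest group mean in Memantine. Control held 1.142, 1.031 and 0.8078 CPM, and Memantine held 0.6443, 0.8334 and 1.15 CPM. Glutamate held 0.7749, 1.968 and 1.848 CPM. The highest group was Glutamate_BPC with 2.445, 2.19 and 2.278 CPM. Glutamate_secret lay between 1.418 and 2.353 CPM, and Glutamate_vesicles between 0.5832 and 2.608 CPM. Every library of Glutamate_secret and Glutamate_BPC was above every Control library, as those of 6.88% and 12.2% of all tested genes were.

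**Figure D1:**
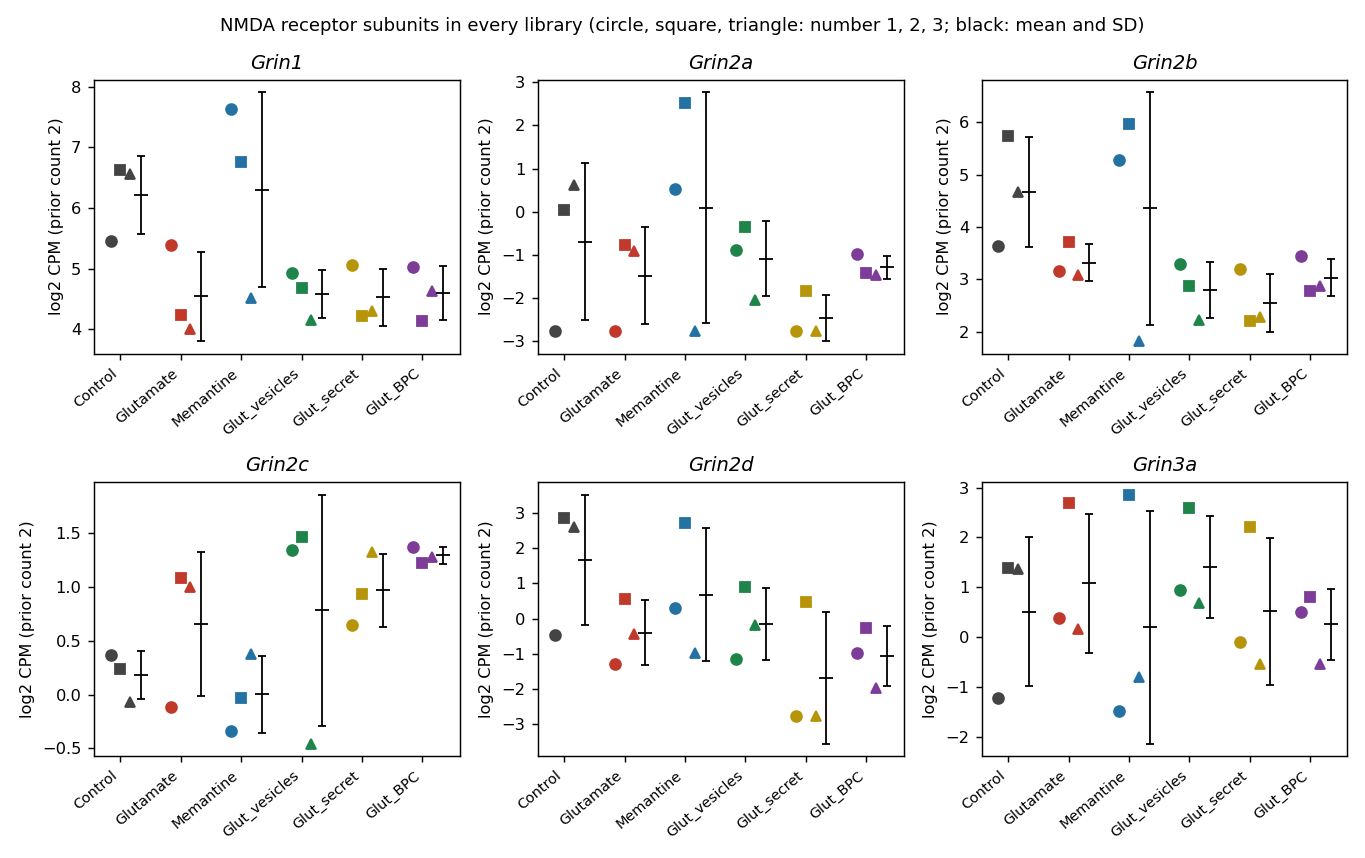
Each panel plots 1 subunit, with the 6 groups on the horizontal axis and log2 CPM (prior count 2) on the vertical axis, whose range differs between panels. Points are single libraries, with the shape giving the library number, and black marks are the group mean and SD (n = 3); Grin1 lies between 15.95 and 41.59 CPM in Glutamate and between 43.97 and 98.11 CPM in Control, and Memantine 3 falls far below the other Memantine libraries for Grin1 and Grin2b.

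A first test asked whether a subunit differed among the 6 groups at all. With the quasi-likelihood F test of edgeR, 0 of the 6 subunits had an adjusted p below 0.05, against 0.00695% of all tested genes (1 gene). The adjusted p was 0.15 for Grin1 (unadjusted p = 0.00219 in edgeR) and 0.246 for Grin2b. DESeq2 gave an adjusted p of 0.00161 for Grin1 and 0.00975 for Grin2b, and called these 2 subunits and 4.99% of all genes. The likelihood-ratio test of edgeR, which takes the dispersion as known, gave adjusted p-values of 0.00138 and 0.00813 for the same genes and called 4.08% of all genes. In edgeR's F test the adjusted p was 0.636 for Grin2a, 0.713 for Grin2d, and 1 for Grin2c and Grin3a. With the share of ribosomal RNA as a covariate, the adjusted p of Grin2d was 0.0313 in edgeR, in a fit that called 385 of 14398 genes. With the library number as a block, edgeR's F test called Grin1 (adjusted p = 0.0247) and 3.45% of all genes. No label pairs the numbered libraries, and by the rule given below they did not deviate together in every comparison. Without Memantine 3, the F test of edgeR called Grin1 (adjusted p = 0.00831) and Grin2b (adjusted p = 0.00948). That library had the lowest Grin1 and Grin2b of its group, and 2 Memantine libraries were left. Leaving out each library in turn gave between 0 and 500 genes called over the 6 groups, against 1 with all libraries.

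Glutamate against Control addresses the response of the receptor genes to the excitotoxic exposure. Grin1 was 3.108-fold lower in Glutamate, with a log2 fold change of -1.64 ± 0.61 (SE), a mean of 25.4 ± 14.1 CPM against 78.7 ± 30.2 CPM (SD, n = 3 each) and an adjusted p of 0.445 in edgeR. Grin2b was 3.021-fold lower, at -1.60 ± 0.73 (SE), with an adjusted p of 0.599 in edgeR. For Grin2d the log2 fold change was -2.63 ± 1.29 (SE) and for Grin2a -1.49 ± 1.36 (SE), with adjusted p-values of 0.65 and 0.984 in edgeR. Grin2c and Grin3a had estimates above 0, at 0.65 ± 0.59 and 0.64 ± 1.17 (SE). With the share of ribosomal RNA as a covariate, Grin2a was at -0.76, Grin2d at -1.78 and Grin3a at 1.23. No subunit passed the threshold, and neither did any of the 14398 genes in this test (0%), while DESeq2 called 1.61% of the genes and the likelihood-ratio test 0.313%, none of them a subunit. Unadjusted p-values below 0.05 in the lower direction were found for 2 of the 6 subunits, Grin1 and Grin2b, against 5.97% of all genes. The ranges of the groups were apart in the lower direction for 1 subunit, Grin1, against 7.76% of all genes.

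The difference was not alike in the libraries of each number. Between Glutamate 1 and Control 1 the log2 difference of Grin1 was -0.08, between the libraries numbered 2 it was -2.39, and between those numbered 3 it was -2.55. For Grin2b the differences were -0.48, -2.02 and -1.59. Grin2d was lower in Glutamate at all 3 numbers, with differences of -0.83, -2.31 and -3.07. Grin2c was lower at number 1 (-0.48) and higher at numbers 2 and 3 (0.85 and 1.06). Control 1 was the library with the largest share of ribosomal RNA, and without it the log2 fold change of Grin1 was -1.92 with an adjusted p of 0.357 in edgeR. Without Control 2, that of Grin2b was -0.91.

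Memantine against Glutamate addresses the effect of blocking the receptor channel on the RNA of its subunits. It uses the same Glutamate libraries as the comparison with Control, with opposite sign, so mirrored estimates arise in part from sharing them. Grin1 was 4.314-fold higher in Memantine, at 2.11 ± 0.62 (SE) on the log2 scale, with a mean of 109.5 ± 87.3 CPM (SD, n = 3) and an adjusted p of 0.611 in edgeR. Grin2b was 3.469-fold higher, at 1.79 ± 0.74 (SE), with an adjusted p of 0.797 in edgeR. Grin2a had the largest estimate, 2.94 ± 1.39 (SE), with an adjusted p of 0.984, and it rested on 113 counts against 11. Grin2d had 1.82 ± 1.27 (SE), Grin2c -0.80 ± 0.58 (SE) and Grin3a -0.12 ± 1.16 (SE). With the share of ribosomal RNA as a covariate, Grin2a was at 1.73, Grin2d at 0.14 and Grin3a at -1.72. In the fit with the library number as a block, Grin1 was at 2.02 ± 0.52 (SE), with an adjusted p of 0.269 in edgeR. Grin2b was at 1.54 ± 0.65 (SE) in that fit, with an adjusted p of 0.523. None was called, as none of all genes was (0%), whereas DESeq2 called 0.0139% of the genes and no subunit. Unadjusted p-values below 0.05 in the higher direction were found for Grin1 and Grin2b, 2 of 6, against 4.88% of all genes, and the ranges of Memantine and Glutamate overlapped for all 6.

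That none was called depended on Memantine 3, the Memantine library with the lowest neuron markers, Grin1 and Grin2b. A fit without it keeps 2 Memantine libraries and drops the lowest values, which favours a higher estimate. In that fit Grin1 was at 2.59 on the log2 scale with an adjusted p of 0.0245 in edgeR. Grin2b was at 2.32 with an adjusted p of 0.0479, and 254 genes were called in all. Without Memantine 1, Grin1 was at 1.37. Without Memantine 2, Grin2a was at 1.05 and Grin2b at 1.06, and the estimate of Grin2d turned from 1.82 to -0.10. Grin1 was higher in Memantine than in Glutamate at all 3 numbers, with log2 differences of 2.24, 2.53 and 0.50. Grin2b was higher at numbers 1 and 2 (2.12 and 2.25) and lower at number 3 (-1.26), and Grin2c was lower at all 3 (-0.22, -1.11 and -0.62). Against Control, no subunit in Memantine had an unadjusted p below 0.05, as 1.12% of all genes did. There the log2 fold change of Grin1 was 0.47, with an interval of 2 SE on either side from -0.71 to 1.66, and that of Grin2b was 0.20, from -1.23 to 1.63.

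The preparations of glial progenitor cells were compared with Glutamate to ask whether they altered the subunits under the same exposure. Grin1 differed by -0.05 on the log2 scale in Glutamate_vesicles, by -0.10 in Glutamate_secret and by -0.03 in Glutamate_BPC. The intervals of 2 SE on either side ran from -1.24 to 1.13, from -1.29 to 1.10 and from -1.22 to 1.16. The estimate of 2.11 in Memantine against Glutamate lay outside all of them, while its own interval, from 0.88 to 3.34, overlapped each. Memantine was not tested against the preparations. Grin2b differed by -0.50, -0.74 and -0.29 in the same order, with intervals from -1.94 to 0.94, from -2.20 to 0.72 and from -1.73 to 1.16. The adjusted p of every subunit was 1 in edgeR in these 3 comparisons, and no unadjusted p was below 0.05, as 1.08%, 0.681% and 1.07% of those of all genes were. The largest estimates were -1.92 ± 1.64 (SE) for Grin2a in Glutamate_secret, which had 3 counts against 11, and -1.29 ± 1.20 (SE) for Grin3a in Glutamate_BPC. From the counts alone, Grin2a was 3.743-fold lower in Glutamate_secret, with an interval from 0.9888-fold to 20.9-fold that covers counting error only. Grin2c in Glutamate_BPC, at 0.58 ± 0.57 (SE), was the 1 subunit whose libraries were all above those of Glutamate, against 2.88% of all genes.

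**Figure D2:**
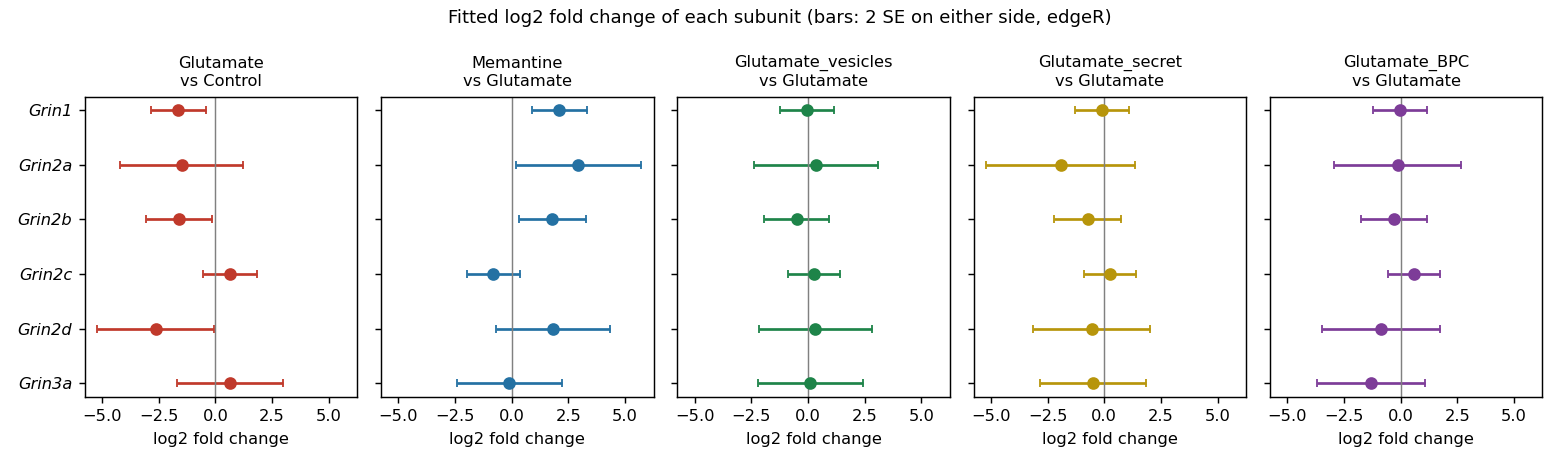
Fitted log2 fold changes (horizontal axis) of the 6 subunits (vertical axis) in Glutamate against Control and in each treated group against Glutamate; bars extend 2 SE to either side. Grin1 is at -1.64 in Glutamate against Control, at 2.11 in Memantine against Glutamate, and between -0.10 and -0.03 for the preparations; no subunit passed the adjusted threshold in edgeR.

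The same 3 groups were set against Control, which is shared by these comparisons and by that of Glutamate with Control. Grin1 was at -1.69 ± 0.61 (SE) in Glutamate_vesicles, -1.73 ± 0.61 in Glutamate_secret and -1.67 ± 0.61 in Glutamate_BPC, with adjusted p-values of 0.282, 0.266 and 0.324 in edgeR. Grin2b was at -2.10 ± 0.75 (SE), -2.33 ± 0.76 and -1.88 ± 0.74, with adjusted p-values of 0.281, 0.232 and 0.348. The ranges of both genes lay below Control in each of the 3 groups, as those of 9.83%, 9.07% and 12.7% of all genes did. Grin2d had -2.31 ± 1.26 (SE) in Glutamate_vesicles, -3.19 ± 1.33 in Glutamate_secret and -3.51 ± 1.35 in Glutamate_BPC, with adjusted p-values of 0.527, 0.358 and 0.341 in edgeR. With the ribosomal RNA covariate Grin2d was called in Glutamate_secret, at -4.55 with an adjusted p of 0.0236 in edgeR. That fit called 581 of 14398 genes, against 0 without the covariate. Grin2a in Glutamate_secret had 3 counts against 44 in Control, which is 11.91-fold lower by counts with an interval from 3.819-fold to 59.98-fold for counting error only. Grin2c was at 0.92, 0.91 and 1.23, and its ranges lay above Control in Glutamate_secret and Glutamate_BPC, as those of 6.88% and 12.2% of all genes did. Unadjusted p-values below 0.05 in the lower direction were found for 2 subunits in Glutamate_vesicles, 4 in Glutamate_secret and 3 in Glutamate_BPC, against 7.61%, 7.61% and 7.42% of all genes. In Glutamate_vesicles against Control the numbers were taken to pair the samples, by a rule on these same data and not by a label. There a model with the number as a block called 538 genes (3.74%) against 2 (0.0139%) without it. No subunit was called in either, and with the block the adjusted p in edgeR was 0.0577 for Grin1 and 0.079 for Grin2b. By the same rule the numbers did not pair the samples in Glutamate_secret against Control. There the block called Grin1 and Grin2d (adjusted p of 0.0469 and 0.0364 in edgeR) and 4.86% of all genes.

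In bulk RNA, fewer neurons and less of a transcript per neuron cannot be told apart, so the subunits were set beside the neuron markers of the same libraries. In Glutamate against Control all 12 neuron markers had estimates below 0, where 44% of all genes were below 0 and 56% above. Their median log2 fold change was -1.49 against 0.09 over all tested genes. Of the 12, 5 had an unadjusted p below 0.05, as 5.97% of all genes had in the lower direction. DESeq2 called 1 of them, Tubb3, the neuronal beta-tubulin (adjusted p = 0.00103), against 1.61% of all genes, and edgeR called 0. All 12 were above 0 in Memantine against Glutamate, as 48.4% of all genes were, with a median of 0.97. There 3 unadjusted p-values were below 0.05, against 4.88% of all genes in the higher direction. Markers of glutamatergic neurons were below 0 in 6 of 6 in Glutamate against Control, with 1 called by DESeq2, Slc17a7, the vesicular glutamate transporter of cortical neurons (adjusted p = 0.0296). GABAergic markers were also below 0 in 6 of 6, with 1 called by DESeq2, Slc32a1, the vesicular transporter of inhibitory neurons (adjusted p = 0.00126). The summed astrocyte markers ranged from 3211 to 6144 CPM in Control, from 5595 to 11100 CPM in Glutamate and from 3643 to 10410 CPM in Memantine. Of these markers 7 of 8 were above 0 in Glutamate against Control (56% of all genes) and 8 of 8 below 0 in Memantine against Glutamate (51.6% of all genes). Microglia markers were above 0 in 7 of 7 (median 1.01) and then below 0 in 7 of 7 (median -0.67), and markers of the oligodendrocyte lineage were above 0 in 9 of 10 (median 0.61) and then below 0 in 8 of 10 (median -0.38). Both comparisons use the same Glutamate libraries, with opposite sign, so mirrored directions arise in part from sharing them. In Memantine against Control, 8 of 12 neuron markers were below 0 (40.1% of all genes), with a median of -0.345. There 6 of 8 astrocyte and 5 of 7 microglia markers were above 0 (59.9% of all genes). The part of these shifts in the subunit values was not tested beyond the levels relative to neuron markers.

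Across the 18 libraries, which share the treatments and differ in depth, the log2 CPM of Grin1 had r = 0.862 with the mean log2 CPM of the neuron markers and Grin2b had r = 0.833. Values were 0.418 for Grin2a, 0.395 for Grin2d, -0.209 for Grin3a and -0.502 for Grin2c. Control 1 departed from this order, with the highest mean of the neuron markers and a Grin1 level of 43.97 CPM.

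**Figure D3:**
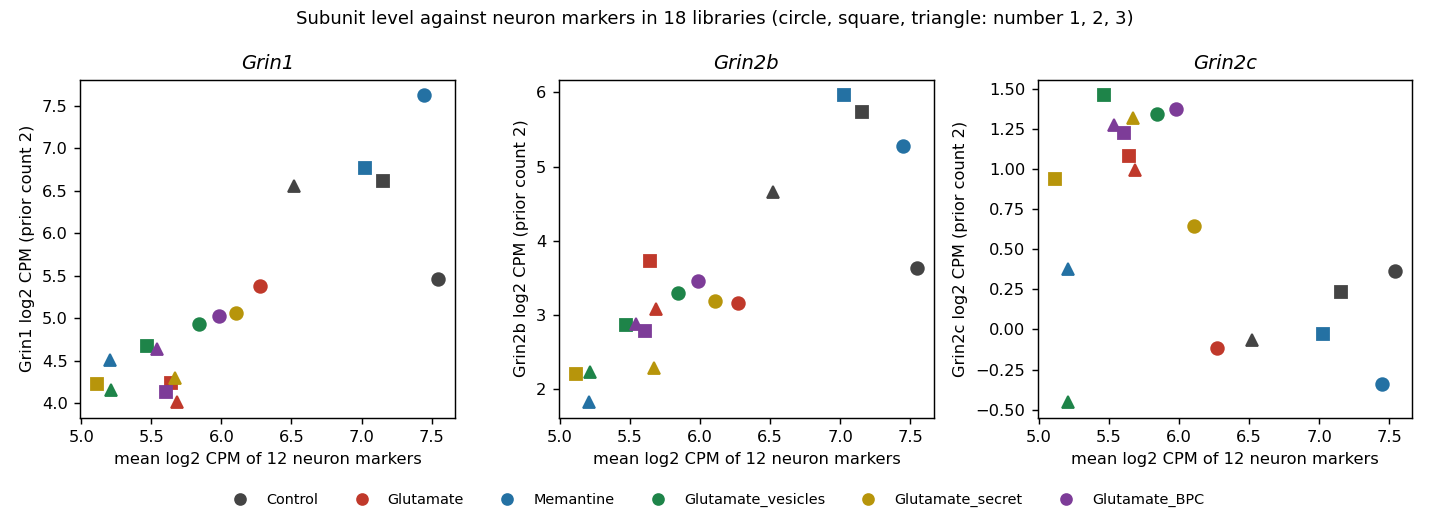
Log2 CPM of Grin1, Grin2b and Grin2c (vertical axes, prior count 2) against the mean log2 CPM of 12 neuron markers (horizontal axis) in 18 libraries, coloured by group, with the shape giving the library number. Grin1 and Grin2b go up with the neuron markers (r = 0.862 and 0.833) and Grin2c goes down (r = -0.502); Control 1 (black circle) has the highest marker mean, with less Grin1 and Grin2b than Control 2, Control 3, Memantine 1 and Memantine 2.

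Relative to the neuron markers, the log2 level of Grin1 was -0.86 ± 1.10 (SD, n = 3) in Control and -1.33 ± 0.40 (SD, n = 3) in Glutamate. The difference was -0.47 (exact permutation test, two-sided, p = 0.6), where Grin1 itself differed by -1.67 on this scale and the markers by -1.21. Without Control 1 it was -1.08, and without Control 3 it was -0.02. In Memantine the relative level of Grin1 was -0.26 ± 0.44 (SD, n = 3), and the difference from Glutamate was 1.07 (exact permutation p = 0.1, adjusted 0.84), with all 3 Memantine libraries above all 3 Glutamate libraries. Grin1 itself differed by 1.76 on this scale and the markers by 0.69. The nearest libraries were Memantine 3 (-0.696), whose marker mean was low at 5.206, and Glutamate 1 (-0.89). How many of all genes were apart on this relative scale was not counted. Leaving out a single library kept the difference between 0.85 and 1.28. With 3 libraries against 3, p = 0.1 is the smallest value the exact test can give, so that no call was possible. For Grin2b the relative difference was -0.16 in Glutamate against Control (exact permutation p = 0.9) and 0.35 in Memantine against Glutamate (exact permutation p = 0.7). Grin2c was 1.68 higher relative to the neuron markers in Glutamate than in Control (exact permutation p = 0.1, adjusted 0.84). Grin2c itself differed by 0.475 on this scale and the markers by -1.21. The 30 tests of this kind, over 6 subunits and 5 comparisons, gave adjusted values of at least 0.84.

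The balance of the GluN2 subunits was described by the share of Grin2a in the counts of Grin2a and Grin2b. This share compares counts and not transcripts per length, so its changes between libraries are informative and its absolute size is not. It was 0% in Control 1, 1.635% in Control 2 and 5.274% in Control 3. In Glutamate it was 0%, 3.302% and 4.494%, and in Memantine 3.217%, 8.258% and 0%. The 5 shares at 0 rest on between 26 and 68 counts, and 0 of 43 counts in Control 1 allows a share of up to 6.977% by a limit of 3 counts, while its 95% Wilson interval reached 8.201%. The 95% Wilson intervals of Control 2 (1.037% to 2.569%) and Control 3 (3.624% to 7.615%) did not overlap, so that libraries of 1 group differed by more than counting error. Group means were 2.303% in Control, 2.599% in Glutamate, 3.825% with memantine, 4.771% with vesicles, 0.971% in Glutamate_secret and 3.166% in Glutamate_BPC. None of 9 comparisons gave an exact permutation p below 0.4, and all adjusted values were 1.

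**Figure D4:**
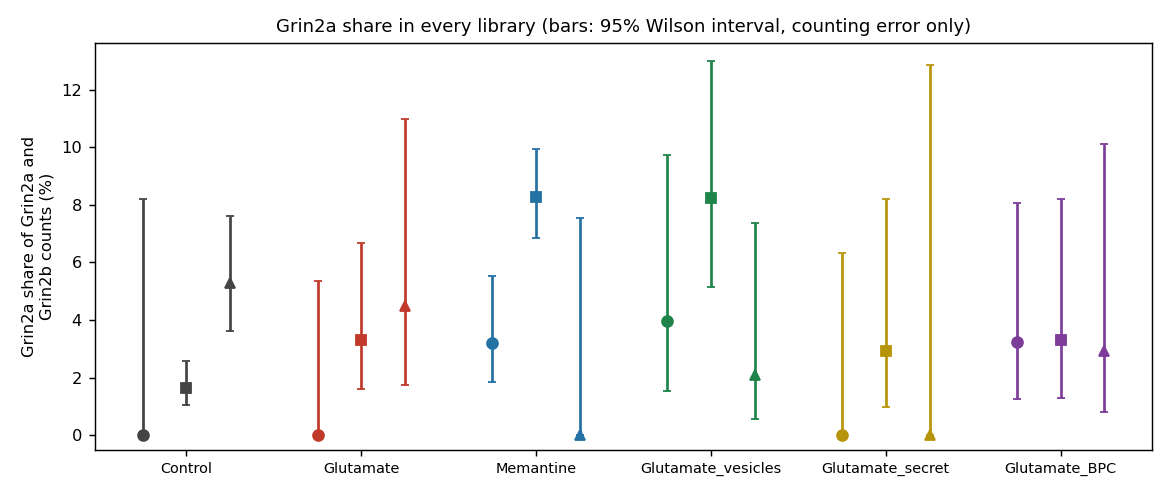
Share of Grin2a in the counts of Grin2a and Grin2b (vertical axis, percent) in each library, by group (horizontal axis); bars are 95% Wilson intervals, which cover counting error only, and the shape gives the library number. Memantine 2 (8.258%) and Glutamate_vesicles 2 (8.247%) are the highest, and 5 libraries are at 0%.

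Genes that work with the receptor were counted from lists. The lists were chosen with earlier results of these data known, so the shares of all genes beside them are a description and not a test. Of 14 scaffold genes of the postsynaptic density, 12 had estimates below 0 in Glutamate against Control (44% of all genes), with a median of -1.29, and 4 had an unadjusted p below 0.05 in the lower direction (5.97% of all genes). In Memantine against Glutamate 13 of 14 were above 0 (48.4% of all genes), with a median of 1.22 and 6 unadjusted p-values below 0.05 (4.88% of all genes in the higher direction). Dlg4, which encodes PSD-95, the scaffold that binds GluN2 tails, was at -1.38 ± 0.58 (SE) and at 1.11 ± 0.57 (SE) in these comparisons. Dlgap1, a PSD-95 binding protein, had the smallest p of the list in the first (-1.21 ± 0.42, SE), and Actn2, an actin-binding protein that attaches to GluN1, in the second (2.39 ± 0.80, SE).

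Kinases and phosphatases that act on the receptor had 14 of 18 estimates below 0 in Glutamate against Control (44% of all genes), with a median of -1.09. Of the 18, 10 had an unadjusted p below 0.05, all of them lower, against 5.97% of all genes. DESeq2 called 2 of the 18, against 1.61% of all genes. Ptk2b, the calcium-dependent tyrosine kinase Pyk2, was at -2.59 ± 0.71 (SE), with an adjusted p of 0.0242 in DESeq2 and 0.282 in edgeR. Ptpn5, the phosphatase STEP that removes phosphate from GluN2B, was at -1.70 ± 0.50 (SE), with an adjusted p of 0.0453 in DESeq2 and 0.294 in edgeR. The calcium/calmodulin kinase genes Camk2a and Camk2b were at -2.53 ± 1.04 and -1.69 ± 0.53 (SE) and were not called. In Memantine against Glutamate 15 of the 18 were above 0 (48.4% of all genes), with a median of 1.03. There 6 unadjusted p-values were below 0.05 (4.88% of all genes in the higher direction). Ptk2b again had the smallest p (2.54 ± 0.71, SE, adjusted p = 0.611 in edgeR).

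Among 9 tested genes that couple the receptor to cell death or to its regulation, 7 were below 0 in Glutamate against Control (median -1.06, 44% of all genes below 0). In Memantine against Glutamate 9 of 9 were above 0 (median 1.08, 48.4% of all genes above 0). Rasgrf1, an exchange factor that binds GluN2B, was at -2.37 ± 0.68 (SE) and was called by DESeq2 (adjusted p = 0.0407) and not by edgeR (0.294). Nos1, the neuronal nitric oxide synthase, and Dapk1, a death-associated kinase, were at -2.33 ± 1.26 and -1.06 ± 0.50 (SE). Trafficking partners were divided, with 8 of 14 below 0 (median -0.21, 44% of all genes below 0) and 0 unadjusted p-values below 0.05. Lin7b, which helps carry GluN2B, had the smallest p (-1.78 ± 0.95, SE). In Memantine against Glutamate 11 of the 14 were above 0 (48.4% of all genes), and Apba1, of the same carrier complex, had the smallest p (2.47 ± 1.45, SE). Genes of the supply and removal of co-agonists gave 7 of 8 estimates above 0 in Glutamate against Control (median 0.61; 56% of all genes were above 0), with Shmt2, the mitochondrial enzyme that makes glycine, at 0.88 ± 0.34 (SE), Slc6a9, the glial glycine transporter, at 0.62 ± 0.36 and Srr, the serine racemase, at -0.50 ± 0.35. Markers of astrocytes (7 of 8 above 0, median 0.65), of the oligodendrocyte lineage and of microglia had medians in the same direction, and their part in it was not tested. Of 2 further genes with receptor names, Grin3b, the gene of GluN3B, was at -0.58 ± 0.80 (SE) and Grina, which encodes no subunit of the receptor, at 0.35 ± 0.40. The medians of the scaffold, kinase and death-coupled genes moved with that of the neuron markers (-1.49), and the part of neuronal RNA in them was not tested. Mirrored medians in these comparisons arise in part from the shared Glutamate libraries. In Memantine against Control, which does not use them, the median was 0.434 for scaffolds and -0.123 for kinases and phosphatases. It was 0.263 for death-coupled genes, against 0.105 over all tested genes.

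**Figure D5:**
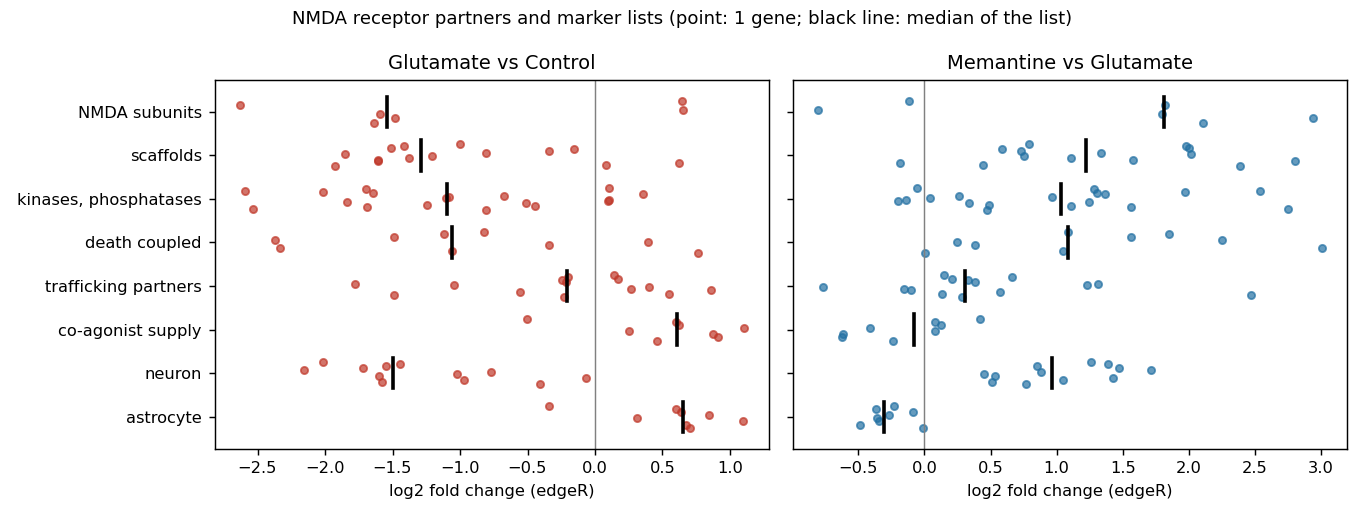
Log2 fold changes (horizontal axis) of the subunits, of 5 lists of receptor partners and of neuron and astrocyte markers (vertical axis) in Glutamate against Control and in Memantine against Glutamate; each point is a gene and black lines are medians. Scaffolds, kinases and phosphatases, and neuron markers have medians of -1.29, -1.09 and -1.49 on the left and of 1.22, 1.03 and 0.97 on the right. Both panels use the same Glutamate libraries, with opposite sign.

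With the preparations against Glutamate, the medians of the scaffolds were 0.18 with vesicles, -0.28 in Glutamate_secret and -0.49 in Glutamate_BPC, and those of the kinases and phosphatases were -0.04, -0.17 and -0.18. The trafficking partners had medians of -0.10, -0.19 and -0.48, and the last of these was farther from 0 than their median in Glutamate against Control. Over all 5 lists of partners, 0 unadjusted p-values were below 0.05 with vesicles, where 1.08% of all genes had one, 1 in Glutamate_secret (0.681% of all genes) and 1 in Glutamate_BPC (1.07% of all genes).

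The genes most like each subunit over the 18 libraries were sought among 11880 genes whose log2 CPM averaged 1 or more, by Pearson's r of log2 CPM, and all share the depth and treatment of the libraries. Among them, Grin1 had r = 0.995 with Agap2 and r = 0.974 with Dnm1, the neuronal dynamin. Grin2b had r = 0.951 with Chd3 and 0.946 with Ak5, and Grin2d was closest to the kinases Brsk1 (0.97) and Mink1 (0.966) and to Dlg4 (0.965). For Grin2a these were Hivep2, Adamts17 and Mdga1 (0.903, 0.894 and 0.893), for Grin3a Stt3b, Rrm2b and Acsl3 (0.938, 0.936 and 0.931), and for Grin2c Me1, Papss2 and Fkbp14 (0.722, 0.71 and 0.668). Among the subunits themselves, Grin1 had r = 0.88 with Grin2b, 0.628 with Grin2a, 0.541 with Grin2d, -0.064 with Grin3a and -0.608 with Grin2c. Grin3a was nearest to Grin2d (0.613), the other subunit that was highest in every library numbered 2.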

How the data were processed

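RNA of 18 libraries was used, each with 1 column of values. The authors deposited expected counts, which are estimated reads per gene and need not be whole. According to the study's methods they quantified trimmed reads with Salmon against Ensembl rat transcripts and summed them to genes with tximport; the labels name STAR and Salmon and the build rn6. Neither Salmon's version nor the strand setting of the counting was given in the sources used here. No scaling between libraries had been applied. Values were rounded before testing, where the tests had been planned for whole counts.

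All 31463 rows were read, and filterByExpr (minimum count 10, minimum total 15) left 14398 genes. edgeR 4.0.16 in R 4.3.3 was used with TMM scaling, 1 mean per group over all 18 libraries, two-sided quasi-likelihood tests and Benjamini-Hochberg adjustment over all genes at 0.05. SE came from the F statistic, CPM used scaled library sizes, and log2 CPM a prior count of 2. The scripts were tested on simulated data. Alternatives were DESeq2 1.42.0, the likelihood-ratio test of edgeR (the study's test), RLE scaling, no filter, removal of 78 ribosomal RNA rows, the log2 share of ribosomal RNA as a covariate, the library number as a block, and leaving out each library. DESeq2 gave no adjusted p for Grin3a, nor for Grin2a in Glutamate_vesicles against Control, and these were kept as missing.

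The library numbers were taken to pair the samples where deviations from the group means correlated above 0.1 for all 3 numbers. This held for Memantine, Glutamate_secret and Glutamate_BPC with Glutamate (0.445 to 0.892) and for Glutamate_vesicles with Control (0.208 to 0.6). It did not hold for Glutamate_vesicles with Glutamate (0.005 at number 3). The rule used these same data, and no label gives such a pairing. Library numbers also differed in their share of ribosomal RNA, whose part in these correlations was not tested. The share of Grin2a had been planned as a log2 ratio, which is undefined in the 5 libraries without Grin2a counts, so the share was tested and the ratio with 0.5 added became the alternative. This was decided after the files were seen.

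The members and the gene lists were chosen with earlier results of these data known. Named were all 6 subunits, a set of partner genes, in each list the gene of smallest p for Glutamate against Control and for Memantine against Glutamate, and list genes called by DESeq2, which were added after their values were seen. Promoter sequences are from RefSeq (GRCr8), another build than rn6, and no values were placed on them. Of the 3 genes most like each subunit, 1 for Grin1 and 1 for Grin2b are not reported here. No transcript lengths were used, so the order of the subunits by counts or CPM does not give their order in transcript level. Intervals of counts cover counting error only.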

Additional observations from a re-analysis of the deposited data

How the results depend on the processing

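The adjusted call of every subunit in the 9 pairwise comparisons (none called) was the same with DESeq2 where it gave an adjusted p, and with the likelihood-ratio test, RLE scaling, no filter and removal of ribosomal RNA rows. In the fit with the ribosomal RNA covariate, Grin2d was called in Glutamate_secret against Control (1 subunit) and over the 6 groups (1 subunit). With the replicate block, Grin1 and Grin2d were called in Glutamate_secret against Control (2 subunits, at -1.92 and -3.75), as 4.86% of all genes were. There the numbers did not pair the samples by the rule used (r of -0.454 at number 3). The block also called Grin1 over the 6 groups (1 subunit, adjusted p = 0.0247 in edgeR), as it called 3.45% of all genes. In the comparisons taken as paired the block changed no other call of a subunit. DESeq2 and the likelihood-ratio test each called 2 subunits over the 6 groups. The cause of these shifts was not tested.

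Counts of genes called were 0 in every pairwise comparison except 2 in Glutamate_vesicles against Control, and 1 over the 6 groups. DESeq2 called 232 genes in Glutamate against Control, 2 in Memantine against Glutamate, 3 in Glutamate_vesicles and 1 in Glutamate_BPC against Glutamate, 495, 449 and 256 in Glutamate_vesicles, Glutamate_secret and Glutamate_BPC against Control, and 717 over the groups. The likelihood-ratio test called 45, 0, 2, 0, 160, 223, 61 and 587 in the same order. The covariate gave 32 in Glutamate against Control, 1, 1 and 3 in Memantine, Glutamate_vesicles and Glutamate_secret against Glutamate, 57, 581 and 18 for the preparations against Control, and 385 over the groups. The replicate block gave 166 in Glutamate against Control, 538, 700 and 251 for the preparations against Control, and 497 over the groups. No filter gave 5 over the groups. Leaving out 1 library gave 0 to 254 genes and 0 to 2 subunits in Memantine against Glutamate, 0 to 2 genes in Glutamate_vesicles against Control, and 0 to 500 genes and 0 to 2 subunits over the groups.

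No subunit was called in a pairwise comparison of the main fit, so every change of direction fell on an estimate that was not called. With the covariate, Grin2a, Grin2d and Grin3a were at -0.55, -1.12 and -0.82 in Glutamate_vesicles against Glutamate, and Grin3a at -0.49, -0.19 and 0.11 in Memantine, Glutamate_secret and Glutamate_BPC against Control. With the replicate block, Grin1 was at 0.026 and 0.066 in Glutamate_vesicles and Glutamate_BPC against Glutamate, Grin2a at 0.037 in the latter, Grin2b and Grin3a at -0.041 and -0.49 in Memantine against Control, and Grin3a at -0.50 in Glutamate_secret against Control. With summed neuron CPM as the reference, the relative level of Grin1 was at -0.011 in Glutamate_secret against Glutamate and that of Grin2b at 0.20 in Glutamate against Control. Leaving out 1 library gave the following ranges of log2 fold change where the direction changed. In Glutamate against Control they were -0.76 to 1.05 for Grin3a. In Memantine against Glutamate they were -0.10 to 2.61 for Grin2d and -3.07 to 1.29 for Grin3a. In Glutamate_vesicles against Glutamate they were -0.30 to 0.50 for Grin1, -0.33 to 0.85 for Grin2a, -0.076 to 0.70 for Grin2c, -0.49 to 1.12 for Grin2d and -0.80 to 1.51 for Grin3a. In Glutamate_secret against Glutamate they were -0.42 to 0.45 for Grin1, -0.053 to 0.47 for Grin2c, -6.31 to 0.24 for Grin2d and -2.08 to 0.92 for Grin3a. In Glutamate_BPC against Glutamate they were -0.28 to 0.52 for Grin1, -0.62 to 0.36 for Grin2a and -1.70 to 0.11 for Grin3a. In Memantine against Control they were -0.27 to 0.98 for Grin1, -0.44 to 2.09 for Grin2a, -0.53 to 0.89 for Grin2b, -0.37 to 0.017 for Grin2c and -2.44 to 1.05 for Grin3a. In Glutamate_vesicles against Control they were -0.16 to 1.09 for Grin3a. In Glutamate_secret against Control they were -1.44 to 0.57 for Grin3a.

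Relative to the neuron markers, leaving out 1 library gave these ranges. In Glutamate against Control they were -0.84 to 1.37 for Grin2a and -0.91 to 0.33 for Grin2b. In Memantine against Glutamate they were -0.11 to 1.63 for Grin2a, -0.23 to 0.94 for Grin2b and -0.41 to 1.02 for Grin2d. In Glutamate_vesicles against Glutamate they were -0.10 to 1.22 for Grin2a, -0.45 to 0.15 for Grin2b, -0.10 to 0.96 for Grin2c and -0.051 to 1.28 for Grin2d. In Glutamate_BPC against Glutamate they were -0.50 to 0.82 for Grin2a, -0.41 to 0.19 for Grin2b, -1.17 to 0.083 for Grin2d and -1.21 to 0.25 for Grin3a. In Glutamate_secret against Glutamate they were -0.036 to 0.95 for Grin2c and -1.42 to 0.60 for Grin3a. The difference in the Grin2a share ranged, in percentage points, from -0.86 to 1.78 in Glutamate against Control, -0.99 to 3.14 in Memantine against Glutamate, -0.73 to 1.51 in Glutamate_BPC against Glutamate, -0.69 to 3.44 in Memantine against Control, -2.48 to 0.15 in Glutamate_secret against Control and -0.29 to 2.35 in Glutamate_BPC against Control.

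Precision was limited by 3 libraries per group and by the sparse counts of Grin2a, Grin2c, Grin2d and Grin3a. In groups of 3 no library was screened as an outlier. Every alternative named in the processing summary was run.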
